A study of Mus musculus with 6 samples.

Results

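Ribosome biogenesis factors and RNA polymerase I subunits were followed in mouse immature dendritic cells (imDCs) with and without fluid shear stress (FSS). The genes were chosen by symbol. The rule took every Nol, Nop, Utp, Rrp or Tsr gene with a number, the Polr1a to Polr1f subunits, and Fbl, Ncl and Npm1. It left out Nol3 and Nol4 and asked that values be present. It found 45 genes of 18071 with values. No row carried the symbol Polr1f, and polymerase subunits under other symbols are described in a list further below. Nol4l met the pattern by its symbol alone and is described apart from the others.

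Bone marrow of male C57BL/6 mice, 7 weeks old, was grown over 7 days in IL-4 at 10 ng/ml plus GM-CSF at 20 ng/ml, and cells carrying CD11c, an integrin subunit of dendritic cells, were then selected. In the FSS group (3 libraries), a cone turning over the dish put 10 dyn/cm2 of shear on these cells for 3 h. The static group (3 libraries) was cultured without flow and served as the control. Both groups shared the strain, sex, age, cytokines and selection, and the comparison asks which messenger RNAs differ under shear.

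Ribosomes are assembled in the nucleolus. RNA polymerase I copies the ribosomal DNA into a long precursor RNA, which small nucleolar ribonucleoproteins (snoRNPs) modify and a large set of factors fold, cut and trim into the RNAs of the small and large subunits. The process takes up much of the energy of a growing cell, and in mammals the factor MYC promotes the transcription of many of its genes and of ribosomal DNA itself.

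The data are FPKM, fragments per gene divided by transcript length and by the mapped fragments of the library, a unit inferred from the values. The summed FPKM ran from 413898 to 439110 in FSS libraries and from 432027 to 470596 in static libraries. Sequencing depth is unknown, so no counting error can be given. Nothing states that the replicates were separate cultures or animals, so p-values reflect only how these libraries vary, which may be technical variation. The libraries numbered 3 stood apart from the other 4 on the first principal component (48.5% of the variance). Of 8 dendritic markers, 6 reached 1 FPKM in every library, Flt3 and Cd209a being the exceptions, and the 8 summed to 6853 to 8491 FPKM in FSS libraries and 7397 to 8427 FPKM in static libraries. The 6 macrophage markers summed to 239 to 348 FPKM in FSS libraries and 218 to 266 FPKM in static libraries. The 7 neutrophil markers summed to 224 to 361 FPKM in FSS libraries and 265 to 450 FPKM in static libraries. Of the neutrophil markers 5 to 7 reached 1 FPKM in each library. These ranges overlapped between the groups. Within pairs of the same number, the macrophage sum was higher and the neutrophil sum lower under FSS in all 3. Among macrophage markers, Mertk had 57.3, 49.8 and 21.97 FPKM in FSS libraries, against 20.3, 21.4 and 12.3 FPKM in static libraries. Fcgr1 had 3.56, 3.04 and 4.09 FPKM in FSS libraries, against 6.28, 4.94 and 7.1 FPKM in static libraries. Neither gene overlapped between the groups, and they lay in opposite directions. Among neutrophil markers, S100a8 had 98.9, 156 and 146 FPKM in FSS libraries, against 154, 243 and 240 FPKM in static libraries. S100a9 had 111, 169 and 190 FPKM in FSS libraries, against 99.1, 164 and 184 FPKM in static libraries. Within pairs, S100a8 was lower and S100a9 higher under FSS in all 3. The part of these markers in the results below, blocked fits included, was not tested. The 4 B cell, 4 T cell, 2 NK, 3 erythroid and 3 mast or basophil markers summed to at most 5.26 FPKM per type in any library. In such bulk samples, fewer cells of a type and less RNA per cell cannot be told apart.

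Promoter sequences are shown for 6 genes that were lower under FSS, chosen after their values were seen. The E-box CACGTG, the site that MYC and its partner MAX bind, can be read in 3 of them. Whether MYC had a part in their levels was not tested. The 3 of 6 follows from which genes were shown and is not a share of the genes that were lower. Over windows of 250 bases before and 50 after the start, CACGTG stood in 9 of 36 genes (25.0%). It stood in 12.0% of tested genes with a window. Each run gives 120 bases that end before the most upstream start annotated for the gene (RefSeq, build GRCm38.p6), which is the start of the promoter table for Nop2, Nol11 and Utp18 and lies 60, 45 and 26 bases upstream of it for Nol9, Nop56 and Polr1b. The runs read 5′ to 3′ on the strand of the gene. Capitals mark CACGTG, and CCGGAAG or its reverse complement, the core bound by ETS factors. The first 3 genes hold CACGTG before the start. Among the genes with a window and no overlap between the groups, no others hold CACGTG there. Utp14b and Rrp7a, not shown, also hold it before the start, and their FSS and static levels overlapped. The other 3 genes shown were among those with the clearest differences and hold neither motif in the stretch shown.
Nop2 (chr6:125131763-125131882, plus strand): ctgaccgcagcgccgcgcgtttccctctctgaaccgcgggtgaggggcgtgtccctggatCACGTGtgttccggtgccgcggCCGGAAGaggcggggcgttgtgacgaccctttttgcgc
Nol11 (chr11:107189382-107189501, minus strand): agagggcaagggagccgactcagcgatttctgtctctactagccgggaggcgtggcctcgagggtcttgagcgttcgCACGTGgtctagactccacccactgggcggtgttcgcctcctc
Utp18 (chr11:93885767-93885886, minus strand): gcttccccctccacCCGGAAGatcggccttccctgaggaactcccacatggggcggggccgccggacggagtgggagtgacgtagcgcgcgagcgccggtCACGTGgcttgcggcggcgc
Nol9 (chr4:152039141-152039260, plus strand): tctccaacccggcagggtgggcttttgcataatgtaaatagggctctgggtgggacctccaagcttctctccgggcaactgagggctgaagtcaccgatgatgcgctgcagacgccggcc
Nop56 (chr2:130274247-130274366, plus strand): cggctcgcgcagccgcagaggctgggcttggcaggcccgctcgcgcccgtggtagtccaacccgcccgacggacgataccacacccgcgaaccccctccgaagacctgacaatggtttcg
Polr1b (chr2:129100850-129100969, plus strand): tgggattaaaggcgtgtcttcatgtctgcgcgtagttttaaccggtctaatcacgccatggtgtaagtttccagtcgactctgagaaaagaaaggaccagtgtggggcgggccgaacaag

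Of the 45 genes 40 had a lower mean level under FSS, and 5 of them passed the gene test. These were Nol9, a kinase that acts in cutting the precursor between the large subunit RNAs; Tsr1, a GTPase-like factor of the small subunit; Nop56, a core protein of box C/D snoRNPs; Nol10, a factor of the small subunit processome; and Polr1b, the second largest subunit of RNA polymerase I. None passed as higher. The levels of the 5 genes under FSS were 0.299 (Nol9) to 0.485 (Nop56) times those of static cells. Npm1, Nop10 and Polr1d, by contrast, had means under FSS of 0.991, 0.999 and 1.01 times the static means.

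The test was limma on log2(FPKM + 1) over the 10899 genes that reached 1 FPKM in 3 or more of the libraries, with Benjamini-Hochberg adjustment and a threshold of 0.05. All 45 genes entered it, since none was under 1 FPKM in any library. Of the 45 genes 5 (11.1%) were called lower under FSS and 0 higher, against 0.862% and 0.853% of all genes tested. At an unadjusted limma p under 0.05, 20 of the 45 were lower and 0 higher, against 13.8% and 4.27% of all genes. The 5 calls depended on which libraries entered. By limma 0 of the 45 were called lower when any of the 3 static libraries or FSS replicate 1 or 2 was left out, and 7 without FSS replicate 3. Over all genes tested the first 5 of these fits called 0 to 8 lower, and the fit without FSS replicate 3 called 176. At an unadjusted p, these 6 fits had 17 to 21 of the 45 lower and 0 higher, apart from 1 higher without FSS replicate 3, against 854 to 1492 lower and 299 to 1115 higher of the 10899. Without a filter on low values limma called 0 of the 45 lower and 0 higher, against 0.0407% and 0.0814% of all genes. At an unadjusted p under 0.05 in that fit, 20 of the 45 were lower and 0 higher. Of the 10899 genes, 1528 were lower and 451 higher there.

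FSS and static libraries of 1 number were treated as pairs, which comes from these data and not from the labels. When the number entered as a block in the limma model, 24 of the 45 fell and 1, Nol4l, rose, while 25.1% of all genes fell and 7.73% rose. The median difference over all genes, FSS minus static, was -0.12 log2, and 0.02 after the libraries were scaled by their median ratio, and changes are to be read relative to that shift. With the scaling but no block, 4 of the 45 fell (Nol9, Tsr1, Nol10 and Rrp1b) and 0 rose, against 0.651% and 1.45% of all genes. With equal library totals 2 (Nol9 and Nol10) fell and 0 rose, against 0.413% and 0.624%, and with a pseudocount of 0.1 in place of 1, 4 fell (all but Polr1b of the 5) and 0 rose, against 0.661% and 0.725%. With median-ratio scaling added to the block, 20 of the 45 fell and 2 (Nol4l and Nop53) rose, against 16.8% and 19.2% of all genes. The groups did not overlap, with every FSS library below every static one, for 23 of the 45 (51.1%), against 20.4% of all genes; the opposite held for 0 of the 45 and 5.1% of all genes. FSS was lower in all 3 pairs for 34 of the 45, against 47.3% of all genes, and higher in all 3 for 1, against 17.1%.

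The median difference of the 45 genes was -0.31 log2(FPKM + 1), and -0.12 over all genes tested. In pairs 1, 2 and 3 it was -0.32, -0.33 and -0.39, against -0.08, -0.07 and -0.22 over all genes. The difference was below 0 for 40 of the 45, against 65.8% of all genes, and with median-ratio scaling for 33 of the 45, against 47.2% of all genes. The summed level of the 45 genes was 738, 789 and 737 FPKM in FSS libraries 1 to 3, against 873, 945 and 919 FPKM in static libraries. That was 0.178%, 0.187% and 0.168% of all FPKM in FSS libraries and 0.202%, 0.219% and 0.195% in static libraries, so the groups did not overlap.

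**Figure D1:**
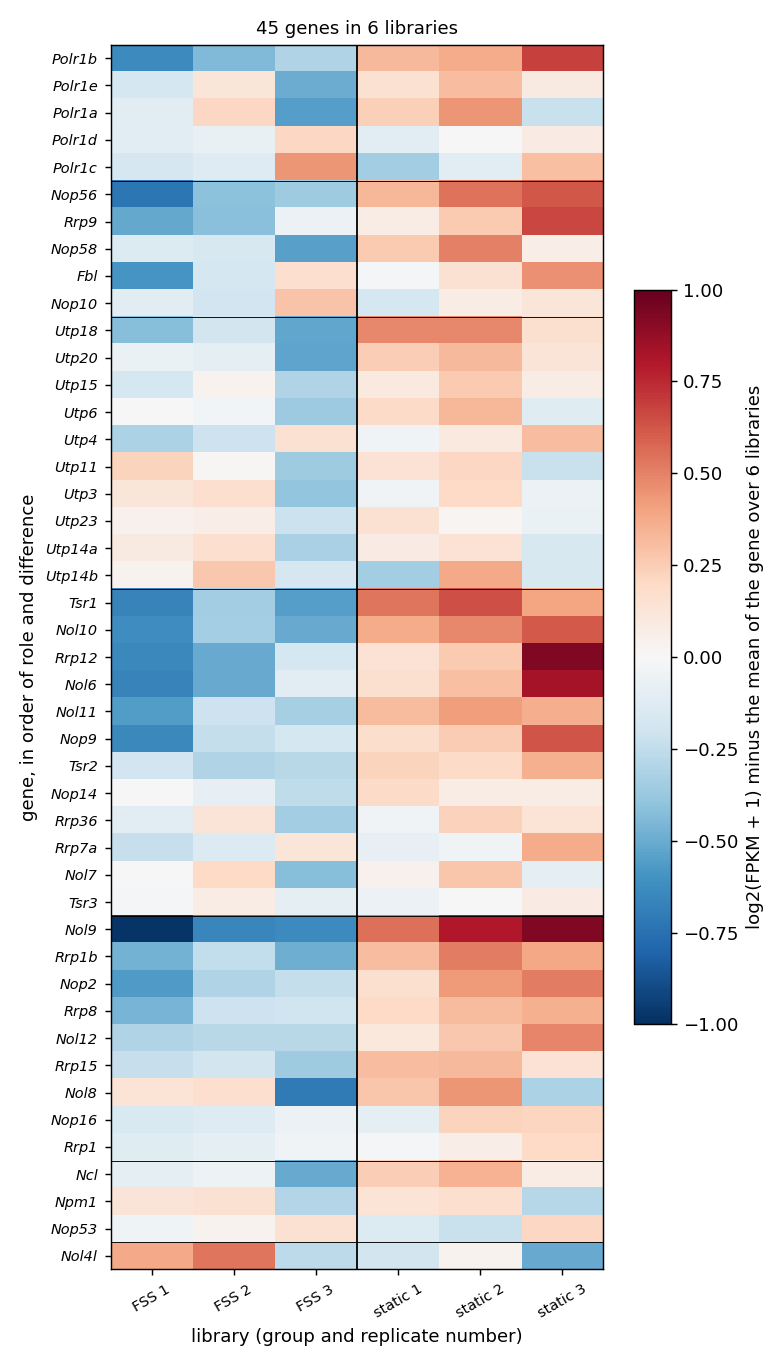
Level of each of the 45 genes (rows, ordered by role) in each of the 6 libraries (columns), as log2(FPKM + 1) minus the mean of that gene, with blue for lower and red for higher. All FSS libraries are below all static ones for 23 genes, among them Nol9, Tsr1 and Nop56, while in Npm1 and Nol8 the library numbered 3 is the lowest of each group.

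RNA polymerase I is built around 2 large subunits, encoded by Polr1a and Polr1b, which together form its active centre. Polr1b had 2.57, 3.1 and 3.52 FPKM in FSS libraries, against 5.95, 6.17 and 7.93 FPKM in static libraries. All FSS libraries lay below all static ones. The log2 difference was -0.92 ± 0.17 (SE, with limma adjusted p = 0.0487), and the call was lost with median-ratio scaling (0.0824), with equal totals (0.0571) and with a pseudocount of 0.1 (0.0512). Polr1a had 23.1, 29.2 and 16.8 FPKM in FSS libraries, against 29.9, 34.4 and 21.4 FPKM in static libraries. The groups overlapped, each library numbered 3 was the lowest of its group, and Polr1a fell in the blocked fit alone (limma adjusted p = 0.0371, against 0.607 unblocked, and 0.206 with the block and scaling).

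Polr1e, which encodes a subunit that helps the enzyme start and elongate, was low, at 1.8, 2.43 and 1.24 FPKM in FSS libraries and 2.51, 2.92 and 2.37 FPKM in static libraries. It fell in the blocked fit alone (limma adjusted p = 0.0393, against 0.367 unblocked, and 0.062 with the block and scaling). Polr1c and Polr1d encode a pair of subunits that RNA polymerase I shares with RNA polymerase III. Polr1c had 14.8, 15.1 and 23.0 FPKM in FSS libraries and 12.9, 15.4 and 20.8 FPKM in static libraries. Polr1d had 58.0, 59.0 and 72.0 FPKM in FSS libraries and 57.4, 62.5 and 66.2 FPKM in static libraries. For both the groups overlapped, and neither passed (limma adjusted p = 0.891 and 0.971; 0.454 and 0.893 with the block). Whether the subunits differed from each other in their response was not tested.

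**Figure D2:**
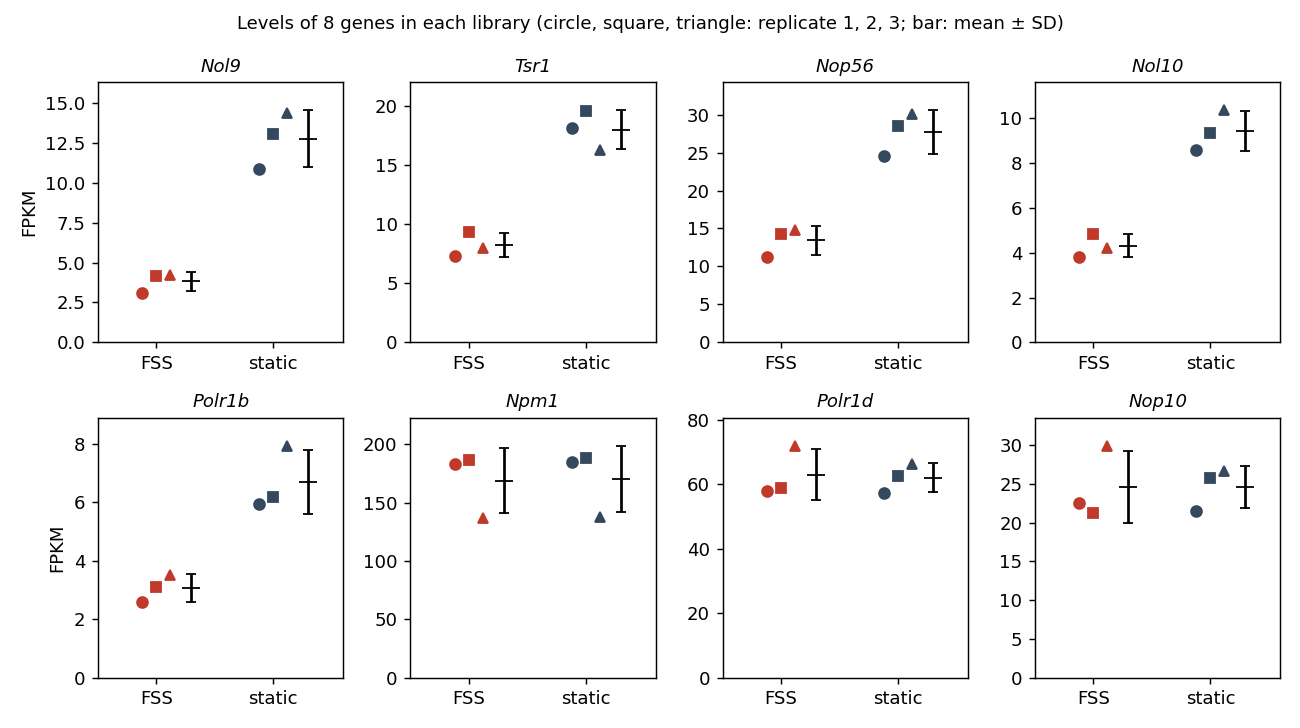
FPKM of 8 genes in each FSS and static library (symbols mark replicates 1, 2 and 3), with the mean and SD of each group beside the points. The top row and Polr1b show FSS libraries below every static library, whereas Npm1, Polr1d and Nop10 overlap.

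Box C/D snoRNPs carry the enzyme that methylates ribosomal RNA on the ribose, fibrillarin (Fbl), held by the related scaffold proteins of Nop56 and Nop58. Nop56 had 11.3, 14.3 and 14.8 FPKM in FSS libraries, against 24.6, 28.5 and 30.1 FPKM in static libraries. The groups stood well apart, and differed by -0.99 ± 0.17 log2 (SE; limma adjusted p = 0.0423), and the call was lost with median-ratio scaling (limma adjusted p = 0.0666) and with equal totals (0.0513). The annotated span of Nop56 overlaps that of Idh3b, and whether strand was used in counting is not known. Nop58 had 16, 15.73 and 11.81 FPKM in FSS libraries, against 21.3, 25.5 and 18.5 FPKM in static libraries. It did not overlap between the groups and fell in the blocked fits alone (log2 difference -0.55; limma adjusted p = 0.00605, against 0.184 unblocked).

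Fbl had 30.1, 40.6 and 51.7 FPKM in FSS libraries, against 45.4, 51.1 and 63.1 FPKM in static libraries. The groups overlapped, the library numbered 3 was the highest of each group, and within each pair the FSS library was lower, at -0.58, -0.33 and -0.28 log2. Fbl fell with the block (limma adjusted p = 0.019, against 0.44 unblocked), but not with the block and scaling (0.114). Rrp9, a protein of the U3 snoRNP that guides early cuts of the precursor, averaged 10.1 ± 1.9 FPKM under FSS and 16.7 ± 3.81 FPKM in static cells (SD, n = 3 each), and also fell with the block (limma adjusted p = 0.00277, against 0.158 without). Nop10, a small protein of the H/ACA snoRNPs that make pseudouridine, had 22.6, 21.3 and 29.9 FPKM in FSS libraries and 21.5, 25.7 and 26.6 FPKM in static libraries. Its groups overlapped and it passed in neither fit (limma adjusted p = 0.984, and 0.945 with the block); its difference was -0.01 log2, and 0.15 with median-ratio scaling. The sign also turned with that scaling for Npm1, Tsr3, Utp3, Utp11, Utp14a and Utp23, none of which passed.

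The small subunit processome is the large assembly that folds the start of the precursor around U3. Beside the snoRNP proteins above, 22 of the genes were grouped as acting in it or in later steps of the small subunit. Of the 10 with UTP symbols, none passed in the limma fit without the block (2 were lower and 0 higher at an unadjusted p under 0.05), and 3 fell with the block, near the 13.8% (unadjusted) and 25.1% (block) of all genes. Utp18 and the other genes that follow outside the rule for named genes were chosen after their values were seen. Utp18 had 7.57, 9.18 and 7.05 FPKM in FSS libraries, against 15.1, 15.1 and 11.9 FPKM in static libraries. All FSS libraries were below all static ones, and it fell with the block (limma adjusted p = 0.00236, against 0.081 unblocked). Utp20 and Utp15 fell with the block as well, at 0.703 and 0.802 times the static mean (limma adjusted p = 0.0142 and 0.0477); Utp15 did not with scaling added (0.194). The other 7, Utp3, Utp4, Utp6, Utp11, Utp14a, Utp14b and Utp23, had ratios of 0.816 to 1.06 and passed in neither fit. Utp14b, a copy of Utp14a that lies inside Acsl3, had 4.26, 5.17 and 3.55 FPKM in FSS libraries and 3.02, 5.66 and 3.58 FPKM in static libraries, and its reads can be told from those of Utp14a and Acsl3 only with uncertainty.

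The other 12 small subunit factors were at 0.456 to 0.985 times the static mean. Without the block 2 of them passed as lower, against 0.862% of all genes. Tsr1 had 7.3, 9.34 and 7.98 FPKM in FSS libraries, against 18.1, 19.5 and 16.3 FPKM in static libraries. Every FSS library was below every static one (log2 difference -1.04 ± 0.16, SE; limma adjusted p = 0.0348). The call was lost when the library totals were made equal (0.053), and the annotated span of Tsr1 overlaps that of Srr. Nol10 had 3.83, 4.85 and 4.23 FPKM in FSS libraries, against 8.58, 9.36 and 10.4 FPKM in static libraries. The groups did not overlap (log2 difference -0.98 ± 0.16, SE; limma adjusted p = 0.0369).

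With the block 7 of these 12 fell, also with scaling, against 25.1% (block) and 16.8% (block and scaling) of all genes. Beside Tsr1 and Nol10 they were Rrp12, a repeat protein of pre-ribosomes that acts late in maturation and export; Nol6, a processome protein; Nol11, a partner of the UTP proteins that bind early; Nop9, an RNA-binding protein of small subunit precursors; and Tsr2, known in yeast as the chaperone of a small subunit protein. Rrp12 had 3.86, 4.36 and 5.75 FPKM in FSS libraries, against 7.4, 8.14 and 13.5 FPKM in static libraries. Nol6 had 8.0, 9.1 and 12.2 FPKM in FSS libraries, against 15.0, 16.7 and 24.5 FPKM in static libraries. In both genes the libraries numbered 3 were the highest of their group, and the groups did not overlap. Over all 6 libraries both were called with the block (limma adjusted p = 0.00181 and 0.00126) and not without it (0.115 and 0.113), and Nol6 also passed unblocked without FSS replicate 3. Nop14, Rrp36, Rrp7a, Nol7 and Tsr3, an enzyme that modifies the small subunit RNA, passed in neither fit, with ratios of 0.84 to 0.985.

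As factors of the large subunit and of the precursor between the subunits 9 genes were grouped, without Nop53, which is described further below. Nol9 showed the largest difference of the 45 genes in the limma fit. Nol9 had 3.1, 4.16 and 4.2 FPKM in FSS libraries, against 10.9, 13.1 and 14.4 FPKM in static libraries. The highest FSS library was below the lowest static library by a wide margin, and the pairs gave -1.53, -1.45 and -1.57 log2. Its log2 difference was -1.52 ± 0.18 (SE; limma adjusted p = 0.0153), and this call was kept with a pseudocount of 0.1 and with both scalings.

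With the block 6 of the 9 fell, each also with scaling, against 25.1% (block) and 16.8% (block and scaling) of all genes. Nop2, an enzyme that methylates cytosine in the large subunit RNA and whose promoter above holds an E-box, had 9.9, 12.1 and 12.6 FPKM in FSS libraries, against 17.02, 20.6 and 22.02 FPKM in static libraries. The groups did not overlap, and the pairs were alike at -0.73, -0.72 and -0.76 log2 (limma adjusted p = 0.00192 with the block, against 0.0847 unblocked). Rrp1b missed the threshold without the block (limma adjusted p = 0.0501), passed with median-ratio scaling (0.0436) and without FSS replicate 3, and had 2.47, 3.07 and 2.44 FPKM in FSS libraries, against 4.95, 5.86 and 5.28 FPKM in static libraries. Its relative Rrp1 had 33.9, 34.5 and 36.1 FPKM in FSS libraries and 36.7, 38.7 and 42.7 FPKM in static libraries. Rrp1 did not overlap between the groups either, but by a narrow gap, and passed in neither fit (limma adjusted p = 0.637, and 0.174 with the block). Rrp8, a methyltransferase of the large subunit RNA, Nol12 and Rrp15 fell with the block, at 0.636, 0.644 and 0.671 times the static mean. Nol8 and Nop16 passed in neither fit.

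Nucleophosmin (Npm1) and nucleolin (Ncl) are abundant nucleolar proteins that bind RNA and histones. Npm1 had the highest level per length of the 45 genes, with 184, 187 and 137 FPKM in FSS libraries and 185, 188 and 138 FPKM in static libraries. The libraries of each pair were nearly equal, at -0.01 log2 in each, whereas both libraries numbered 3 were lower (limma adjusted p = 0.984, and 0.908 with the block). Npm1 has processed pseudogenes, and how reads were divided among them is not known. Ncl had 27.7, 28.6 and 20.7 FPKM in FSS libraries, against 35.5, 38.1 and 31.3 FPKM in static libraries. The groups did not overlap, and Ncl fell in the blocked fits alone (limma adjusted p = 0.0118, against 0.264 unblocked).

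Nop53, which in yeast brings the RNA exosome to large subunit precursors, had 52.1, 55.0 and 59.8 FPKM in FSS libraries and 48.7, 45.9 and 62.2 FPKM in static libraries. Its groups overlapped, it passed in neither fit without scaling (limma adjusted p = 0.845, and 0.458 with the block), and it rose with block and scaling together (0.0446). Nol4l, a relative of the excluded Nol4, had 5.59, 6.32 and 3.21 FPKM in FSS libraries and 3.45, 4.19 and 2.57 FPKM in static libraries. It was higher in every pair and rose in the blocked fits alone (limma adjusted p = 0.0188, and 0.00164 with scaling, against 0.418 unblocked).

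**Figure D3:**
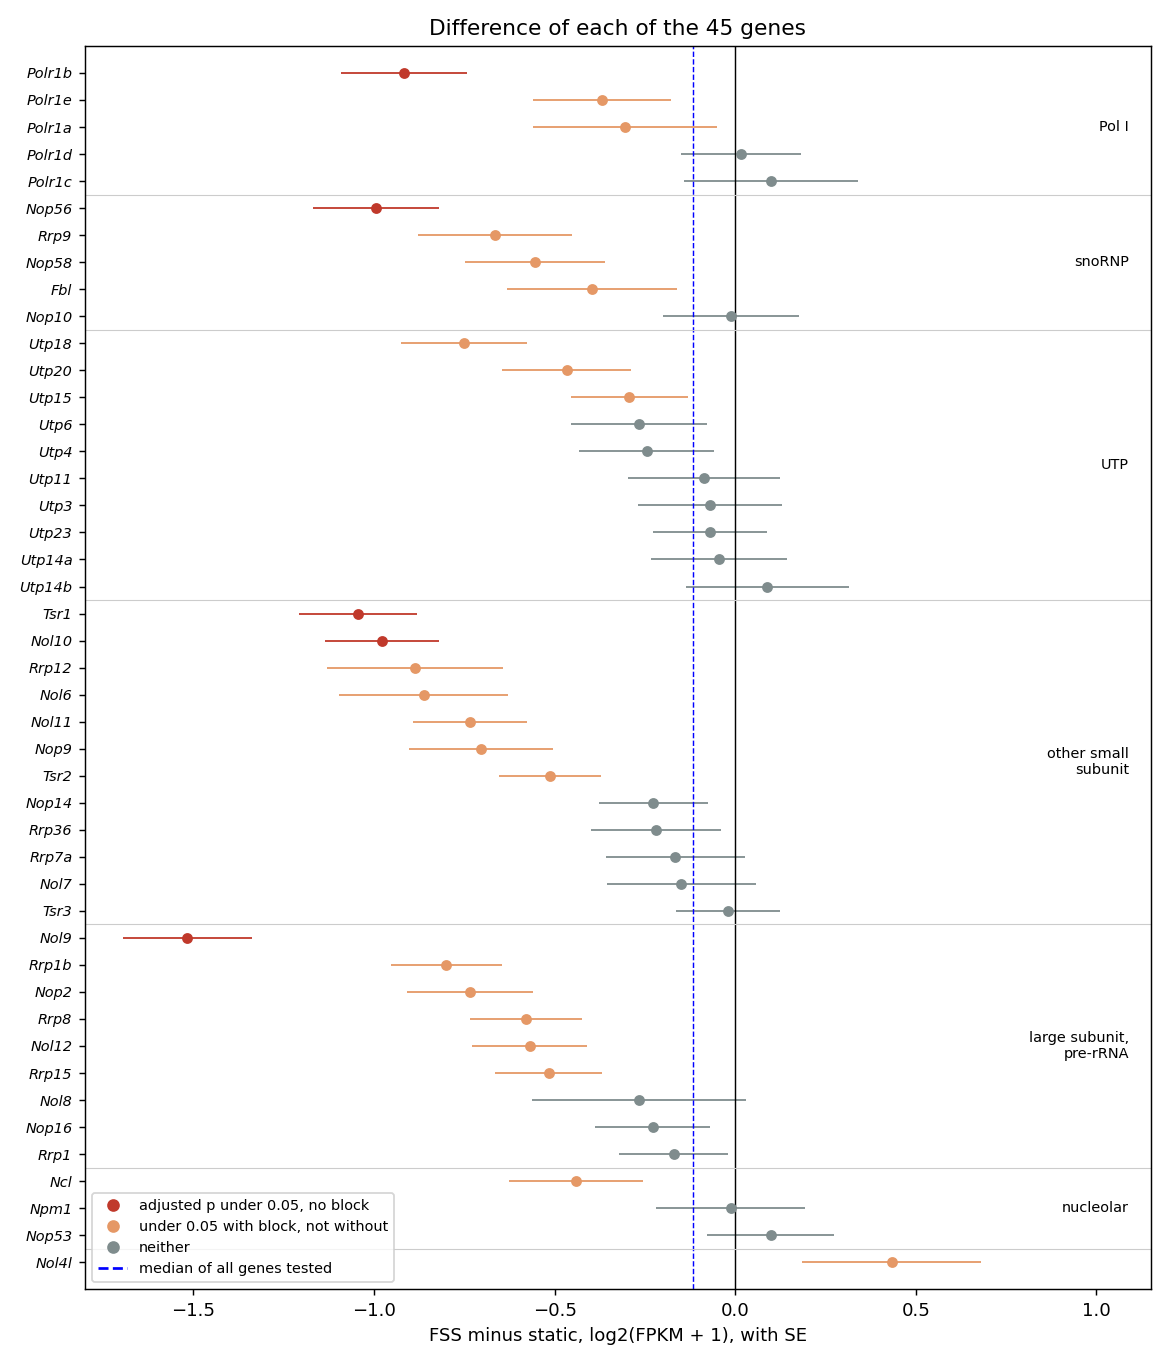
Difference of each of the 45 genes, FSS minus static, on the log2(FPKM + 1) scale with its SE, grouped by role. Of the fits of all 6 unscaled libraries, red marks the 5 genes called without the block, orange those called with the block and not without, and the dashed line the median of all genes tested (-0.12).

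In level per length, static means ran from 2.31 FPKM in Tsr2 to 170 FPKM in Npm1, and Polr1d (62.0 FPKM), Fbl (53.2 FPKM) and Nop53 (52.3 FPKM) followed Npm1. Neither Fbl nor Nop53 passed in the fit without the block, whereas Fbl fell with the block and Nop53 rose with block and scaling. The genes also differed in how they followed the replicate number. The level in the libraries numbered 3 against the mean of numbers 1 and 2, averaged over both groups, had a median of -0.001 log2 over the 45 genes, with 23 of them below 0, and -0.12 over all genes. By role the median was 0.30 log2 for the 5 snoRNP genes and -0.28 for the 10 UTP genes, of which 9 were lower in number 3. The groups are balanced in the numbers, and what the numbers stand for is not known.

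The other factors of the pathway were read in 6 lists, none of which shares a gene with the 45. Of the 136 genes of the lists that were tested, 6 fell (4.41%) and 0 rose in the limma fit, against 0.862% and 0.853% of all genes, and at an unadjusted p under 0.05 these numbers were 60 and 0, against 13.8% and 4.27%. With the block 82 fell and 0 rose, against 25.1% and 7.73% of all genes, and once median-ratio scaling was added 66 fell and 7 rose, against 16.8% and 19.2%. These all-gene shares also stand behind the counts of each list. The median difference over the 136 was -0.41 log2, with 125 below 0, beside -0.12 over all genes. With median-ratio scaling the median was -0.27, against 0.02 over all genes.

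The list of RNA polymerase I initiation and termination held 10 genes, with Myc counted among them as a factor that promotes ribosomal DNA transcription. Only Myc fell without the block. Myc had 9.48, 16.1 and 11.5 FPKM in FSS libraries, against 36.9, 43.4 and 37.1 FPKM in static libraries. No FSS library came near the static ones (log2 difference -1.61 ± 0.21, SE; limma adjusted p = 0.0203). Rrn3, the factor that brings the polymerase to its promoter, averaged 15.2 ± 1.42 FPKM under FSS and 20.6 ± 0.731 FPKM in static cells (SD, n = 3 each) and fell with the block (limma adjusted p = 0.0138, against 0.193 unblocked). Ubtf, which binds the ribosomal DNA promoter, averaged 23.3 ± 3.14 FPKM under FSS and 28.4 ± 3.23 FPKM in static cells and passed in neither fit (limma adjusted p = 0.467, and 0.0738 with the block). With the block 3 of the 10 fell and 0 rose, against 25.1% and 7.73% of all genes, and with block and scaling 3 fell and 3 rose, against 16.8% and 19.2%. The 3 that rose, named after their values were seen, were Taf1d, Ttf1 and Cavin1 (limma adjusted p = 0.0206, 0.013 and 0.0125 with block and scaling).

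Of 8 polymerase subunits under other symbols, none passed in the unblocked fit of all 6 libraries (2 lower and 0 higher at an unadjusted limma p under 0.05), and 3 fell with the block. Cd3eap, the older symbol of a subunit particular to RNA polymerase I, averaged 2.31 ± 0.279 FPKM under FSS and 4.46 ± 0.543 FPKM in static cells (limma adjusted p = 0.0667, 0.00225 with the block, and 0.0434 unblocked without FSS replicate 3). Polr2h, a subunit common to the nuclear polymerases, averaged 9.38 ± 1.01 FPKM under FSS and 12.6 ± 1.56 FPKM in static cells and fell with the block (limma adjusted p = 0.0178), though not with scaling added (0.0624). Only 1 of the 8 fell with block and scaling. Znrd1 and Twistnb, named after their values were seen, were at 0.968 and 0.997 times the static mean. Both passed in neither fit (limma adjusted p = 0.926 and 0.977, and 0.726 and 0.918 with the block).

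Of 14 snoRNP core and assembly genes, 2 fell and 0 rose (5 and 0 at an unadjusted limma p under 0.05), and 7 fell with the block. With block and scaling 5 fell and 2 rose (Shq1 and Nufip1, assembly factors, limma adjusted p = 0.00932 and 0.0174), both named after their values were seen. Dkc1, the pseudouridine synthase of the H/ACA snoRNPs, had 2.6, 3.74 and 2.72 FPKM in FSS libraries, against 7.28, 9.09 and 6.11 FPKM in static libraries. Znhit3, an assembly factor of box C/D snoRNPs, had 1.31, 2.09 and 2.27 FPKM in FSS libraries, against 4.55, 5.12 and 6.77 FPKM in static libraries. In both genes the groups stood apart (limma adjusted p = 0.0446 and 0.0423).

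Of 34 further small subunit factors, none passed in the unblocked fit of all 6 libraries (13 lower and 0 higher at an unadjusted limma p under 0.05). With the block 19 fell and 0 rose, and with scaling added 15 fell and 2 rose. The 2 were Ngdn and Krr1, named after their values were seen (limma adjusted p = 0.0147 and 0.0387 with block and scaling). Those that fell with the block included Nat10, an RNA acetyltransferase, at 0.526 times the static mean, and Wdr36 at 0.569 times (limma adjusted p = 0.00204 and 0.00311, against 0.0676 and 0.0785 without). Of 47 large subunit factors 2 fell and 0 rose (24 and 0 at an unadjusted p), and 31 fell with the block, 27 with scaling added. Nmd3, the export adaptor of the large subunit, had 5.75, 6.91 and 6.08 FPKM in FSS libraries, against 16.2, 16.2 and 11.9 FPKM in static libraries. Nle1, a factor of the last nuclear steps, had 2.59, 3.51 and 3.21 FPKM in FSS libraries, against 6.16, 6.03 and 6.66 FPKM in static libraries. Both were separated between the groups (limma adjusted p = 0.0369 and 0.0469).

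Of 23 tested genes of the RNA exosome and RNase MRP, which trim and cut the precursor, 1 fell and 0 rose (14 and 0 at an unadjusted limma p under 0.05), and 19 fell with the block, 15 with scaling added. The median difference of this list was -0.47 log2. Pop7, a subunit of RNase MRP and RNase P, had 4.4, 5.82 and 6.36 FPKM in FSS libraries, against 10.9, 11.1 and 12.8 FPKM in static libraries (limma adjusted p = 0.0462). Exosc2, a cap subunit of the exosome, was at 0.537 times the static mean and fell with the block (limma adjusted p = 0.00226, against 0.0864 unblocked). With median-ratio scaling and no block, 3 of the 136 fell (Myc, Dkc1 and Nmd3) and 0 rose, and the limma adjusted p of Znhit3, Nle1 and Pop7 was 0.0592, 0.0642 and 0.0791. With equal totals the calls of Dkc1, Nmd3, Nle1 and Pop7 were lost, with a pseudocount of 0.1 that of Nle1, and with no filter on low values all 6. None of the 6 list genes called without the block passed in the limma fits that left out any 1 library other than FSS replicate 3.

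**Figure D4:**
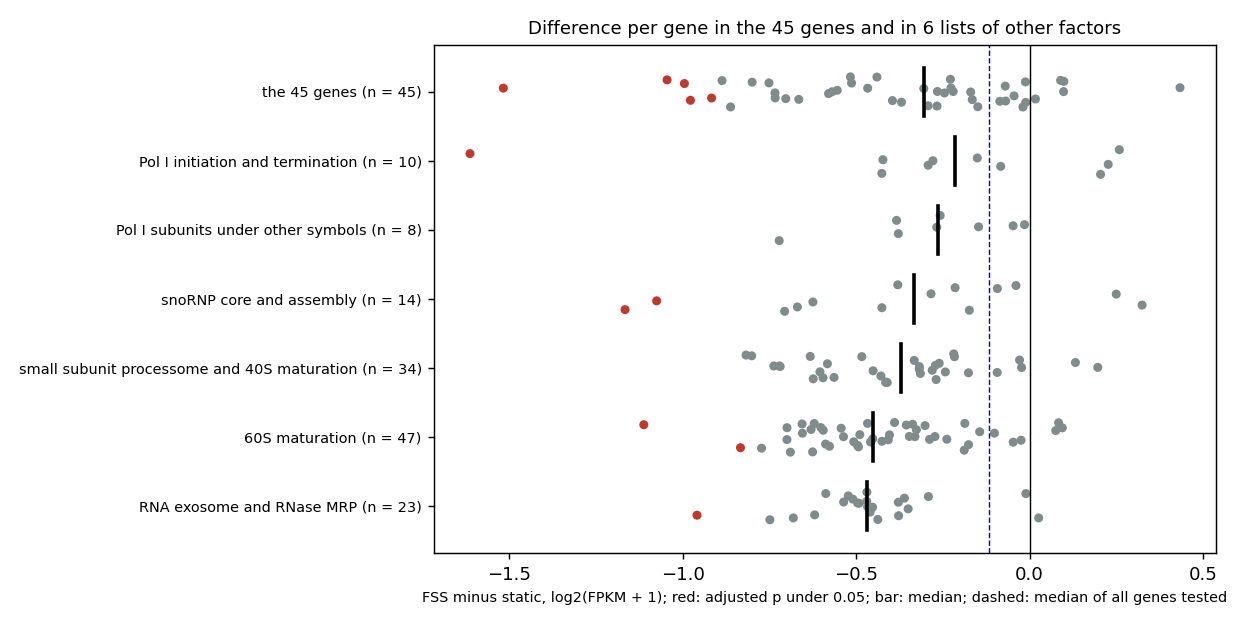
Difference of each gene (points), FSS minus static on the log2(FPKM + 1) scale, for the 45 genes and for 6 lists of other factors of the pathway, with bars at the medians. The medians lie from -0.21 to -0.47 in the lists and at -0.31 in the 45 genes, all below the dashed line at -0.12 for all genes tested.

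The promoter windows were read for the E-box and the ETS core, on both strands, over the 250 bases before and 50 after each start in the RefSeq table. A window was found for 36 of the 45 genes. CACGTG stood in 9 of the 36 (25.0%), in 12.0% of the tested genes that had a window and in 17.2% of the list genes. It stood in 6 of 21 windows of the genes whose groups did not overlap and in 3 of 15 of the others. In Nop2, Nol11 and Utp18, printed above, it began 60, 43 and 20 bases before the start, and in Tsr1 25 bases after it. CCGGAAG stood in 12 of the 36 (33.3%), in 21.6% of tested genes and in 40.5% of list genes, and in 6 of 21 and 6 of 15 windows of the 2 kinds of gene. The motifs do not overlap each other in letters, and these shares are descriptions of sequence, not of binding.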

How the data were processed

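The authors deposited 1 table of normalised expression for 3 FSS and 3 static libraries. Its values are read as FPKM from the values themselves; the deposited FPKM carry no depth, and no whole-read steps could be found in them. HISAT and Bowtie2 were used, per the submitters' processing notes; for their versions, the quantification, the build, the annotation and strandedness, the entry is: not given in the sources used here. Of 22899 rows, 4828 are blank and were left out.

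The 10899 genes reaching 1 FPKM in 3 or more libraries were tested on log2(FPKM + 1) with limma 3.58.1 (trend, R 4.3.3), two-sided, with p-values adjusted over this whole set by Benjamini-Hochberg. A fold change on this scale understates the change of low genes. The procedure was checked on simulated data. Replicate numbers were read as pairs because deviations from the group means correlated at 0.79, 0.66 and 0.87 in pairs 1, 2 and 3. Alternatives were the replicate block, median-ratio scaling, both together, equal totals, no filter, a pseudocount of 0.1, the stricter threshold 0.01 and leaving out each library.

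The members and lists were chosen with earlier results of these data known. Named were members called, the 5 largest differences in each direction, the 5 smallest p with the block, the polymerase subunits, Fbl, Ncl, Npm1, Nop2, Nop10, Nop56 and Nop58. Of other genes, Myc, Ubtf, Rrn3 and up to 2 per list, by smallest adjusted p, were named. In GRCm38.p6, 10 of the 45 genes overlap another protein-coding gene, so their reads may be shared. They are Tsr1, Nop56, Nop9, Rrp8, Tsr2, Polr1e, Rrp7a, Nol7, Tsr3 and Utp14b.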

Additional observations from a re-analysis of the deposited data

How the results depend on the processing

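Of the 45 genes, 5 were called lower and 0 higher, against 0.862% and 0.853% of all genes tested. The replicate block, which uses the pairing read from these data, gave 24 lower and 1 higher, against 25.1% and 7.73% of all genes. With median-ratio scaling added it gave 20 lower and 2 higher, against 16.8% and 19.2%. Equal totals gave 2 lower, against 0.413% of all genes, and no filter and a threshold of 0.01 each gave 0. Leaving out 1 library gave 0 to 7 lower, against 0 to 176 of all 10899 genes. For the 136 list genes, with 6 lower and 0 higher, the block gave 82 lower, median-ratio scaling 3, and both together 66 lower and 7 higher. The all-gene shares above stand behind these counts too, and with median-ratio scaling alone 0.651% of all genes were lower. The median difference of the 45 genes (-0.31 log2) was -0.15 with median-ratio scaling, with or without the block, -0.24 with equal totals, and -0.42 to -0.26 with 1 library left out. No named gene that had passed changed sign in these fits. Apart from the settings' own construction (fewer samples, more genes, a stricter threshold), the cause was not tested. Depth is unknown, and 3 libraries a group limit the precision.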
